A study of Mus musculus with 2 samples.

Results

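The 9 genes described here are the class 3 semaphorins Sema3a, Sema3b, Sema3c, Sema3d, Sema3e and Sema3f, the neuropilins Nrp1 and Nrp2, and the plexin Plxnd1, out of 28000 features in each of the count matrices. They were followed in aortic smooth muscle cells (SMCs) that carried at least 5 UMIs (unique molecular identifiers, counted molecules) of the lineage reporter eGFP, 500 or more detected genes and no more than 10% mitochondrial UMIs. The cells were further split by library, by contractile state, and by whether Dlx5, Dlx6 and Msx2 together reached at least 2 UMIs. The genes were chosen with their levels across these same libraries and cell states in view. Every value below is therefore a description without a test. Of the 2097 KO cells deposited, 1919 were kept, and of the 2095 Control cells, 1692.

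Class 3 semaphorins are secreted guidance proteins that steer axons, endothelial cells and neural crest cells. Most of them bind a neuropilin, which holds the ligand but has little signaling capacity of its own, and signal through a plexin, which acts on small GTPases and the cytoskeleton. Sema3e differs in that it can bind Plxnd1 directly, and the neuropilins also serve as co-receptors for VEGF (vascular endothelial growth factor) ligands. In the mouse, Sema3c, Nrp1 and Plxnd1 are known for their part in septation of the cardiac outflow tract and patterning of the aortic arch arteries.

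The KO library came from mice with floxed Tsc1 (Tsc1fl/fl), the tamoxifen-inducible recombinase Myh11-CreERT2 and the mT/mG reporter, labelled Tsc1-/-. The Control library came from mice labelled Tsc1+/+ with the same Myh11-CreERT2 and mT/mG alleles. All mice were C57BL/6 males that received tamoxifen at an age of 1.5 weeks and were studied at 24 weeks. Cells were released from the thoracic aorta with collagenase and elastase at 37 °C, sorted as viable and GFP-positive, and profiled as 10x droplet libraries, 1 per genotype. Tsc1 encodes hamartin, which restrains the growth kinase complex mTORC1. The Myh11 promoter drives the recombinase in smooth muscle, and eGFP shows that the recombinase acted in a cell or its ancestor, not that Tsc1 was deleted in it. The sources used here do not give the number of animals behind a library. With 1 library per genotype no difference has a replicate check, and all intervals, given at 95%, cover counting error only.

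Kept KO cells had a median of 15012 UMIs and kept Control cells a median of 11665 UMIs, over totals of 30778165 and 20011501 UMIs in KO and Control cells. Tsc1 had 8.55 UMIs per 1000000 UMIs (CPM) in KO cells and 9.54 CPM in Control cells, a ratio of 0.895 (0.740 to 1.08), and a tag from the transcript end does not report on the floxed exons. The contractile share, which is the percent of a cell's UMIs from 19 contractile genes, had a median of 2.73% in KO cells and 6.04% in Control cells. Myh11, the smooth muscle myosin heavy chain, was 2.96 times lower in KO cells, at 847 CPM in KO and 2505 CPM in Control cells. In KO and Control cells, the defining endothelial markers Cdh5 and Tie1 were at 0. Summed over the 8 endothelial markers, the level was 13.1 CPM in KO cells, with 6 markers detected, and 19.9 CPM in Control cells, with 3 detected, nearly all of it Pecam1. Over the 8 fibroblast markers, all detected in both, the sums were 1040.1 CPM in KO cells and 497 CPM in Control cells. Col1a1 alone was at 395 CPM in KO and 442 CPM in Control cells, and without it the sums were 645 CPM in KO and 54.9 CPM in Control cells. The 5 pericyte markers, all detected in both, summed to 493 CPM and 1027 CPM in KO and Control cells. S100b, a glial marker named after its value was seen, was at 15.4 CPM in KO cells and 1.15 CPM in Control cells. Summed levels of the macrophage, lymphocyte and lymphatic lists were between 2.99 and 18.4 CPM in either library. The part of these other markers in the differences between libraries was not tested. The libraries shared 16 cell barcodes, 4 of them among kept cells.

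Among the secreted ligands, Sema3c and Sema3d were much lower in KO cells, Sema3f was moderately lower, and Sema3b was close to its Control level. Sema3d, a semaphorin known for guidance of endothelial and neural crest cells, had 264 UMIs in KO cells and 1328 UMIs in Control cells, which was 8.58 CPM (7.57 to 9.68) against 66.4 CPM (62.8 to 70.0). It was thus 7.74 times lower in KO cells (6.77 to 8.86). Ranked by ratio among the 9400 genes with a mean of the libraries of at least 5 CPM, Sema3d stood 24th from the lowest. This rank is a description only, because the members were chosen with these levels in view. The difference was plain in the upper end of the distribution over cells. As few as 5 of 1919 KO cells held 3 or more Sema3d UMIs, against 114 of 1692 Control cells, and no KO cell held more than 3 UMIs, against a maximum of 9 in Control cells.

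Sema3c, the ligand best known for outflow tract septation, had 1114 UMIs in KO cells and 2492 UMIs in Control cells. The levels were 36.2 CPM (34.1 to 38.4) and 125 CPM (119.7 to 129.5) in KO and Control cells, a level 3.44 times lower in KO cells. It was 123rd from the lowest ratio, likewise a description only. Over cells, 86 KO cells held 3 or more Sema3c UMIs, against 317 Control cells, and the highest KO cell held 11 UMIs, against 15 in Control.

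Sema3f, which in mice signals mainly through Nrp2, was at 32.7 CPM in KO cells and 54.3 CPM in Control cells, 1.66 times lower in KO cells (1.52 to 1.81). Sema3b, another neuropilin ligand, was at 38.2 CPM in KO cells and 34.2 CPM in Control cells, a ratio of 1.12 (1.02 to 1.23). Sema3a, the founding axon repellent of the class, and Sema3e, the Plxnd1 ligand, were near the limit of detection. Sema3a had 5 UMIs in KO cells and 20 UMIs in Control cells, and Sema3e had 21 UMIs in KO cells and 26 UMIs in Control cells. Sema3g, the class 3 member outside the 9, had 1 UMI in KO cells and 0 in Control cells, where a count of 0 allows up to 0.150 CPM. Summed over the 6 ligands, KO cells held 117 CPM and Control cells 282 CPM, 2.42 times less in KO cells.

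The receptors stood the other way. Nrp1, a co-receptor shared by semaphorins and VEGF, had 3246 UMIs in KO cells and 749 UMIs in Control cells. Its level was 105 CPM (101.9 to 109) in KO cells and 37.4 CPM (34.8 to 40.2) in Control cells, a ratio of 2.82 (2.60 to 3.05). As many as 478 KO cells held 3 or more Nrp1 UMIs, against 42 Control cells. Plxnd1, the signaling receptor, was at 10.8 CPM in KO cells and 4.70 CPM in Control cells, a ratio of 2.30 (1.82 to 2.92). Nrp2, the second neuropilin, was scarce, with 165 UMIs in KO cells and 35 UMIs in Control cells, and stood at 5.36 CPM in KO cells and 1.75 CPM in Control cells, a ratio of 3.07 (2.12 to 4.55). The 3 receptors together held 122 CPM in KO cells and 43.9 CPM in Control cells.

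A gene was counted as higher or lower when its ratio was at least 1.5 or at most the inverse of 1.5, among genes with a mean of at least 5 CPM. Of the 9 members 6 passed this minimum, and Sema3a, Sema3e and Nrp2 did not. Nrp1 and Plxnd1 were higher in KO cells, where 13.1% of all genes compared were higher. Plxnd1, at 4.70 CPM in Control cells, passed the minimum only through its KO level. Sema3c, Sema3d and Sema3f were lower, where 11.3% of all genes compared were. The median log2 ratio was -0.28 over the 6 members and -0.0040 over all 9400 genes. Since these ratios chose the members, the counts are given without any reading.

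**Figure D1:**
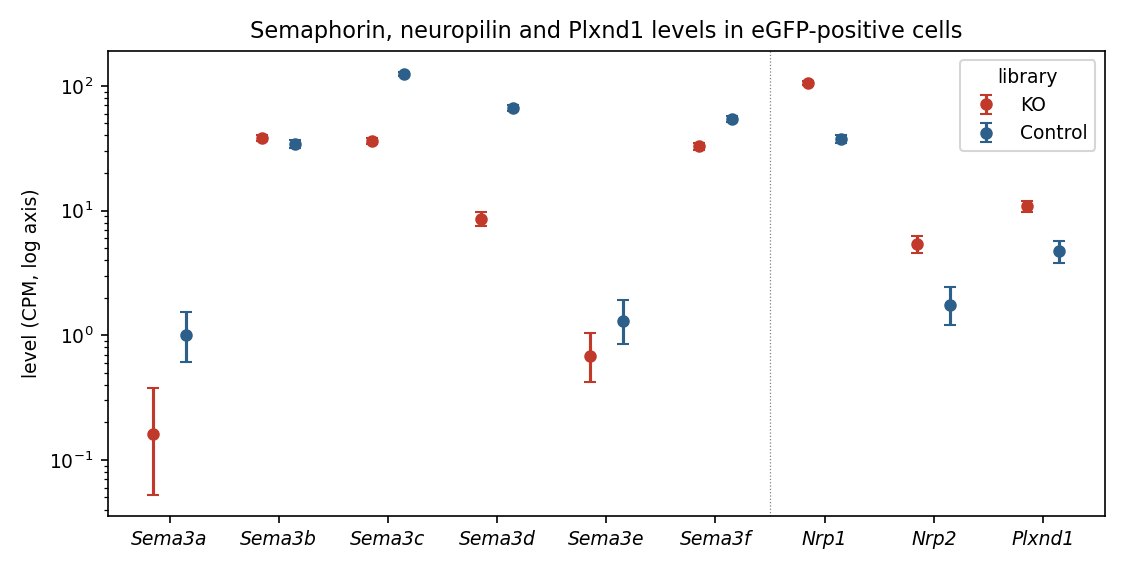
Level of each of the 9 genes in CPM (log axis) in eGFP-positive KO cells (red) and Control cells (blue). Points are summed UMIs over total UMIs of 1 library each, bars are 95% Poisson intervals of the count, and the dotted line parts ligands from receptors. Sema3c, Sema3d and Sema3f are lower in KO, Nrp1, Nrp2 and Plxnd1 are higher in KO, and Sema3b nearly coincides.

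In mm10, Sema3d (chr5:12383385-12588948), Sema3a (chr5:13125414-13602565), Sema3e (chr5:14025276-14256689) and Sema3c (chr5:17574281-17730268) lie in this order on the plus strand of chromosome 5. Sema3b (chr9:107597674-107609229) and Sema3f (chr9:107681500-107710475) are close together on the minus strand of chromosome 9. Nrp1 is at chr8:128358604-128503363 and Nrp2 at chr1:62703285-62818695, both on the plus strand, and Plxnd1 is at chr6:115954811-115995005 on the minus strand. No other protein-coding gene of the GENCODE annotation overlapped any of the 9. The neighbours Sema3b and Sema3f had KO to Control ratios of 1.12 and 0.603, and the outer genes of the chromosome 5 group, Sema3d and Sema3c, were the 2 members lowest in KO among those with enough counts.

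The sequences just upstream of the RefSeq start of Sema3d and Nrp1 (GRCm38.p6) are shown because these 2 genes give the clearest difference of either sign. Each is 250 bases, written 5′ to 3′ on the gene's plus strand, at chr5:12382916-12383165 for Sema3d and chr8:128358823-128359072 for Nrp1. The Sema3d window lies upstream of the GENCODE gene, and the Nrp1 window lies inside the GENCODE gene, past its outermost start, where no exon is annotated. No part is in capitals because no searched motif was present.
Sema3d: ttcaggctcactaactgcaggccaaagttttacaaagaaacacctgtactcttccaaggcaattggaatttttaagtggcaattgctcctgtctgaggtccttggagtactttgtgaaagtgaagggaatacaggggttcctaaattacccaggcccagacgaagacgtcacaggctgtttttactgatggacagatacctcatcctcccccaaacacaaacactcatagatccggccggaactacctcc
Nrp1: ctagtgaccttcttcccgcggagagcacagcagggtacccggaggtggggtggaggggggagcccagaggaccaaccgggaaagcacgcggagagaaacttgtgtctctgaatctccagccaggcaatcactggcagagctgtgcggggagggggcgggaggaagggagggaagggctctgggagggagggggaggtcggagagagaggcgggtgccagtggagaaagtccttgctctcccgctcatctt
The Sema3d window was 46.8% G and C and the Nrp1 window 64.4%. Entries were found for 7 of the 9 genes, all but Sema3b and Sema3f. The windows were not alike in position. The Sema3a window, at chr5:13396534-13396783, lies inside its GENCODE gene, where no exon is annotated. The Sema3c and Nrp2 windows each overlap 3 GENCODE exons. The homeobox core TAATTA, the E-box CACGTG, both palindromes that read the same on either strand, and the CArG box of serum response factor, searched on both strands, had 0 matches in any of the 7 windows. Of 32851 such windows, 4.84% held TAATTA, 6.02% CACGTG and 1.47% a CArG box. These letters being missing from so short a window says nothing about the factors themselves.

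Sema3c and Sema3d were highest in cells positive for Dlx5, Dlx6 and Msx2, homeobox genes that mark skeletal and neural crest derived mesenchyme. There were 113 such cells in KO, or 5.89%, and 256 in Control, or 15.1%. Just inside the limit, with exactly 2 UMIs of the 3 genes together, were 47 KO and 72 Control cells, and just outside it, with exactly 1, were 116 KO and 129 Control cells. Median depth was 16072 UMIs in positive and 14909 UMIs in other KO cells, and 10352.5 and 11983.5 UMIs in positive and other Control cells.

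In KO cells Sema3c was at 115 CPM (100.1 to 131) in Dlx/Msx2-positive cells and 30.9 CPM (28.9 to 33.0) in other cells, a ratio of 3.71 (3.19 to 4.30). In Control cells it was at 269 CPM in positive cells and 101 CPM in other cells, a ratio of 2.67 (2.45 to 2.91). Sema3d was at 14.8 CPM in positive and 8.15 CPM in other KO cells, a ratio of 1.82 (1.19 to 2.68). The same comparison in Control cells gave 113 CPM and 58.6 CPM for Sema3d, a ratio of 1.93 (1.70 to 2.20). Both ligands were thus higher in the positive cells of either library, although Sema3d in KO cells was below 1.5-fold with the limit at 1 UMI and, at a ratio of 1.41, with the limit at 4 UMIs. Sema3d in KO positive cells, at 14.8 CPM, was nevertheless below its level in Control cells with fewer than 2 homeobox UMIs.

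Nrp1 was at 136 CPM in positive and 103 CPM in other KO cells, a ratio of 1.32 (1.16 to 1.49). In Control cells it was at 77.4 CPM in positive and 30.8 CPM in other cells, a ratio of 2.51 (2.13 to 2.94). Nrp1 thus stood higher in the homeobox state of both libraries, past 1.5-fold in Control, and the difference between these ratios was not tested. Neither Plxnd1 nor Nrp2 counted as changed with this state. Plxnd1 was at 7.68 CPM in positive and 10.998 CPM in other KO cells, a ratio of 0.698 (0.386 to 1.17) that was 0.661 with median-of-ratios scaling, past the limit. In Control cells it was at 2.12 CPM in positive and 5.12 CPM in other cells, a ratio of 0.414 (0.148 to 0.937), below the minimum level. Nrp2 was below the minimum in both libraries, with 2 UMIs in positive and 163 UMIs in other KO cells, and 3 UMIs in positive and 32 UMIs in other Control cells. In KO this was 1.02 CPM in positive and 5.65 CPM in other cells, a ratio of 0.181 (0.0217 to 0.665). In Control the Nrp2 ratio was 0.569 (0.111 to 1.82). Sema3b had a ratio of 1.28 in both libraries, and Sema3f one of 1.22 in KO and 0.913 in Control cells.

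In KO cells 2 of 6 members with enough counts were at least 1.5-fold higher in positive cells, where 8.73% of all genes were, and 0 were lower, where 4.82% were. In Control cells 3 of 5 were higher, with 14.0% of all genes, and 0 lower, with 4.09%. Scaling by the median of ratios, which centres the median gene, moved the Control comparison by 0.17 on the log2 scale and left Sema3c at 2.37, Sema3d at 1.72 and Nrp1 at 2.23 times the level of other Control cells. Pericyte markers moved with this state, with all 5 detected on every side. Their sum was 599 CPM in positive and 486 CPM in other KO cells. It was 3103 CPM in positive and 685 CPM in other Control cells, led there by Rgs5 with 2673 CPM in positive and 348 CPM in other cells. The 8 endothelial markers, with Cdh5 and Tie1 at 0 throughout, summed to 29.2 CPM in positive and 12.0 CPM in other KO cells, and to 27.2 CPM in positive and 18.7 CPM in other Control cells. Nearly all of this was Pecam1, with 27.1 CPM in positive and 10.1 CPM in other KO cells. The 5 lymphatic markers, led by Lyve1, summed to 16.4 CPM in positive and 18.6 CPM in other KO cells, and to 29.3 CPM in positive and 11.1 CPM in other Control cells. S100b was at 33.8 CPM in positive and 14.2 CPM in other KO cells. The part of these markers in the result was not tested.

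**Figure D2:**
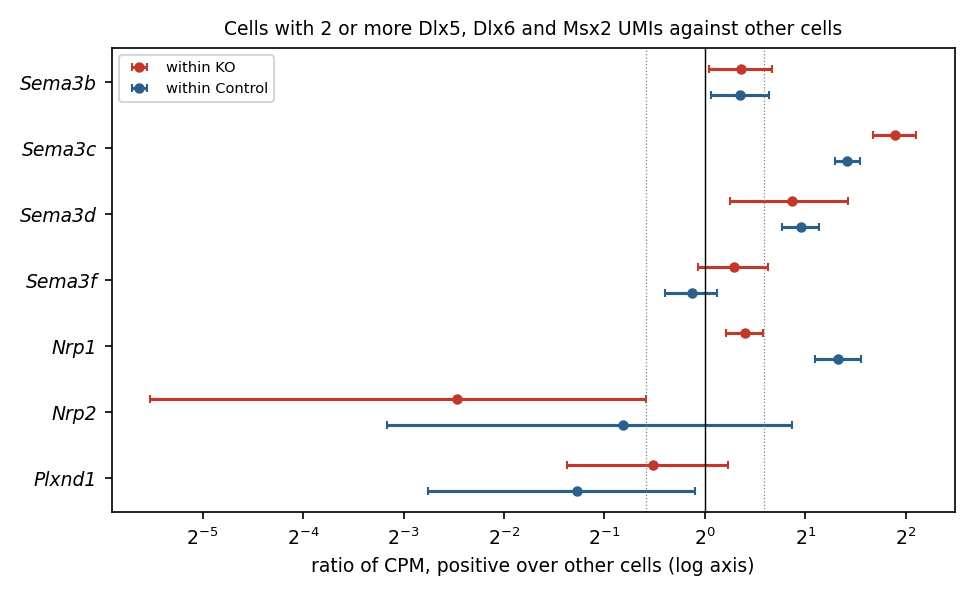
Ratio of CPM in cells with at least 2 Dlx5, Dlx6 and Msx2 UMIs over all other cells of the same library (log axis), within KO (red) and within Control (blue). Bars are 95% intervals for counting error and dotted lines mark 1.5-fold. Sema3c and Sema3d lie to the right in both libraries, Nrp1 is well past the line in Control at 2.51 and short of it in KO at 1.32.

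Each library was also cut into 3 equal parts by contractile share, called tertiles below. The cuts fell at 1.76% and 3.71% of UMIs in KO and at 5.23% and 6.89% in Control, so that both KO cuts lie below the lower Control cut. The share is continuous: 170 and 146 KO cells, and 172 and 152 Control cells, lay within 0.25 percentage points of the lower and upper cut of their library. Nrp1 was graded the same way in both libraries. It was at 137, 106 and 72.7 CPM in the low, middle and high tertile of KO, and at 60.2, 34.5 and 22.5 CPM in those of Control. The low tertile exceeded the high one by 1.88 times in KO (1.72 to 2.05) and by 2.68 times in Control (2.22 to 3.24).

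Sema3c and Sema3d followed the same grade in Control but not in KO. Sema3c was at 33.5, 41.3 and 34.3 CPM in the low, middle and high tertile of KO, and at 185, 114 and 87.3 CPM in those of Control. Sema3d was at 7.01, 8.50 and 10.3 CPM in the low, middle and high tertile of KO, and at 92.8, 63.0 and 48.9 CPM in those of Control. The ratio of the low to the high tertile of Sema3d was 0.681 in KO (0.501 to 0.923) and 1.90 in Control (1.66 to 2.17), so that the order was opposite in the 2 libraries. For Sema3c this ratio was 0.975 in KO (0.841 to 1.13) and 2.12 in Control (1.92 to 2.34). The difference between libraries was not tested.

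Plxnd1 was at 13.3, 9.97 and 8.94 CPM in the low, middle and high tertile of KO and between 4.52 and 4.99 CPM in all 3 of Control. Nrp2 peaked in the middle of KO, with 2.58, 7.87 and 5.96 CPM from the low to the high tertile, and had at most 16 UMIs in any Control tertile. Sema3f was at 28.3, 35.5 and 34.8 CPM from the low to the high tertile of KO and between 52.9 and 55.5 CPM in Control. Sema3b stayed between 35.8 and 39.8 CPM in KO and was at 39.4, 34.6 and 29.8 CPM in the low, middle and high tertile of Control.

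In KO 1 of 6 members was at least 1.5-fold higher in the low than in the high tertile, where 12.2% of all genes were, and 0 were lower, with 8.57% of all genes. In Control 3 of 5 members were higher, with 16.7% of all genes, and 0 lower, with 1.98%. Median-of-ratios scaling moved the Control comparison by 0.20 on the log2 scale and left Sema3c at 1.85, Sema3d at 1.66 and Nrp1 at 2.34. Positive cells for Dlx5, Dlx6 and Msx2 were themselves concentrated at the low end, with 78, 31 and 4 cells in the low, middle and high KO tertile and 185, 53 and 18 cells in those of Control. When tertiles were cut again among cells with fewer than 2 homeobox UMIs, the low to high ratio in KO was 0.702 for Sema3c, 0.537 for Sema3d and 1.83 for Nrp1. In Control these ratios were 1.41, 1.48 and 2.09 for Sema3c, Sema3d and Nrp1. The opposite slopes of Sema3d were present in cells with fewer than 2 Dlx5, Dlx6 and Msx2 UMIs. Sema3c in these cells was likewise lower in the low than in the high tertile of KO, and higher in that of Control. In the original tertiles, Sema3d in these cells was at 5.61, 8.52 and 10.2 CPM in the low, middle and high KO tertile. In those of Control it was at 76.9, 59.3 and 48.2 CPM. Sema3c in the same cells was at 23.5, 35.8 and 33.3 CPM in the low, middle and high KO tertile. In those of Control Sema3c was at 124, 104 and 85.5 CPM.

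Fibroblast markers moved with the contractile tertiles. Their sum was 2145, 585 and 305 CPM in the low, middle and high KO tertile, with 8, 7 and 7 of 8 markers detected, Pi16 at 0 in the last 2, and Dcn at 867 CPM in the low one. In Control the sum was 696, 461 and 373 CPM, with 8, 8 and 7 detected, of which Col1a1 made up 576, 430 and 348 CPM. Lymphocyte markers summed to 4.24, 3.57 and 1.15 CPM in KO and to 26.3, 7.94 and 3.06 CPM in Control, led by Gzma, with Cd3e at 0 in every tertile. Pericyte markers, all 5 detected throughout, summed to 511, 545 and 428 CPM in the low, middle and high KO tertile and to 1737, 936 and 559 CPM in those of Control, where Rgs5 was at 1347, 573 and 251 CPM. The endothelial sum, nearly all Pecam1, was 20.5, 11.4 and 6.92 CPM in KO and 26.5, 20.7 and 14.1 CPM in Control, with Cdh5 and Tie1 at 0. S100b was at 36.1 CPM in the low KO tertile. Their part in the gradients was not tested.

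**Figure D3:**
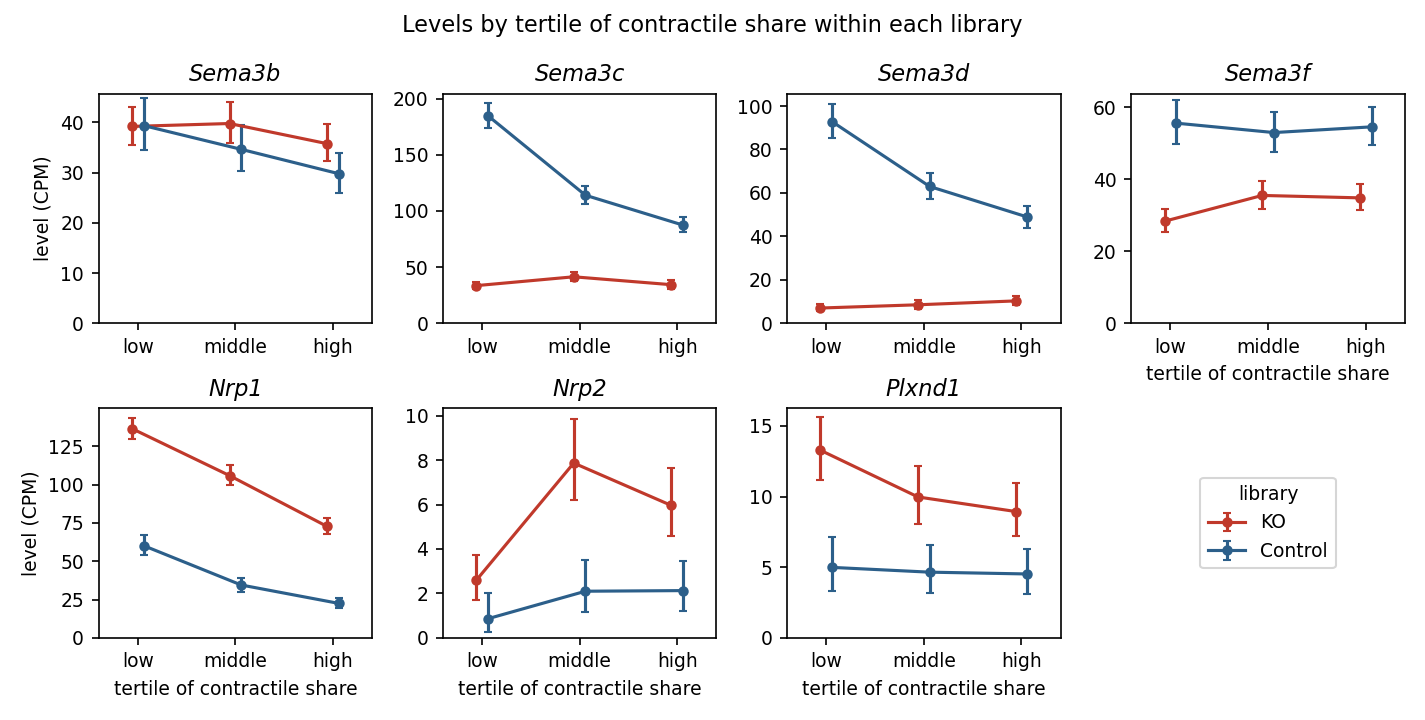
Level in CPM of the 7 members with more than a few UMIs in the low, middle and high tertile of contractile share within KO (red) and Control (blue), with 95% Poisson intervals. Nrp1 declines from low to high in both libraries, while Sema3c and Sema3d decline in Control and Sema3d is slightly higher at the high end of KO.

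To set cells of more similar contractile share side by side, both libraries were pooled and cut at 3.14% and 5.63% of UMIs. The pooled low, middle and high tertile held 1116, 580 and 223 KO cells and 88, 623 and 981 Control cells. The share was not equal within them. From low to high its median was 1.52%, 4.13% and 6.56% in KO and 2.79%, 4.76% and 7.13% in Control cells. Myh11 was 2.51, 1.76 and 1.99 times lower in KO from low to high, and the contractile gene Acta2 had KO to Control ratios of 0.733, 1.20 and 1.17. Cells of a tertile were thus not matched for contractile state. Within 0.25 percentage points of the lower cut lay 170 KO and 69 Control cells, and of the upper cut 80 KO and 179 Control cells. Sema3d was lower in KO in each pooled tertile. It was at 7.71 CPM in KO and 130.2 CPM in Control in the low tertile, 16.9 times lower. In the middle tertile it was at 10.5 CPM in KO and 81.7 CPM in Control, 7.81 times lower, and in the high tertile at 8.29 CPM in KO and 54.4 CPM in Control, 6.56 times lower.

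Sema3c followed, at 37.0 CPM in KO and 242 CPM in Control in the low tertile, 6.53 times lower, at 38.1 CPM and 162 CPM in KO and Control in the middle one, 4.25 times lower, and at 28.0 CPM and 97.6 CPM in KO and Control in the high one, 3.49 times lower. Sema3f was 1.88, 1.56 and 1.66 times lower in KO from the low to the high tertile. Sema3b kept ratios of 0.871, 0.971 and 1.02. The Sema3f ratio in the middle tertile was 0.674 with median-of-ratios scaling, short of the limit. The low tertile held 88 Control cells, and over the alternatives the Sema3c ratio there ranged from 0.129 to 0.264, the highest with Acta2 and Tagln left out of the share. With that share the Sema3c ratio was no longer lowest in the low tertile.

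Nrp1 showed the reverse arrangement. In the low tertile it was at 125 CPM in KO and 109 CPM in Control, a ratio of 1.15 with an interval of 0.923 to 1.45 that includes equality. In the middle tertile it was at 84.9 CPM in KO and 50.02 CPM in Control, a ratio of 1.70 (1.49 to 1.94). In the high tertile it was at 59.9 CPM in KO and 26.4 CPM in Control, a ratio of 2.27 (1.91 to 2.69). With Acta2 and Tagln left out of the share, the Nrp1 ratio was 0.838 in the low tertile and 1.39, under 1.5-fold, in the high one. Plxnd1 had ratios of 1.80 (0.758 to 5.59), 2.29 (1.49 to 3.61) and 1.57 (0.974 to 2.49) from the low to the high tertile, the first resting on 5 Control UMIs and standing at 0.9299 when Acta2 and Tagln were left out of the share.

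Members higher in KO numbered 1 in the low tertile, where 13.6% of all genes were higher, 2 in the middle one, with 9.20%, and 2 in the high one, with 10.4%. Plxnd1, counted in each, was below 5 CPM in Control cells of the middle and high one and passed there only through its KO level. Members lower in KO numbered 3 in each (2 in the middle one with median-of-ratios scaling), with 24.2%, 13.7% and 11.8% of all genes lower from the low to the high tertile. In the low tertile median-of-ratios scaling moved values by -0.16 on the log2 scale and gave ratios of 0.0663 for Sema3d, 0.171 for Sema3c, 1.29 for Nrp1 and 2.01 for Plxnd1. The pooled tertiles differed in their share of homeobox-positive cells, which was 9.32%, 1.55% and 0% in KO and 38.6%, 26.6% and 5.71% in Control from low to high. A count of 0 among 223 KO cells allows a share of up to 1.35%. Without those cells, an alternative added after the data were seen, Sema3d was 13.5, 6.73 and 6.34 times lower in KO, Sema3c 5.83, 3.17 and 3.30 times lower, and Nrp1 had ratios of 1.05 (0.792 to 1.41), 2.20 and 2.44 from low to high. The low tertile then rested on 54 Control cells.

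Split by homeobox state in place of contractile share, Sema3d and Sema3c were lower in KO cells of either state. The states were not matched between libraries. Median contractile share was 1.21% in KO and 4.37% in Control positive cells, and 2.85% and 6.33% in KO and Control other cells. In positive cells of KO and Control, Dlx5 was at 139 and 169 CPM, Dlx6 at 55.8 and 102 CPM and Msx2 at 20.5 and 108 CPM. Among positive cells, Sema3d was at 14.8 CPM in KO and 113 CPM in Control, 7.64 times lower, and Sema3c at 115 CPM in KO and 269 CPM in Control, 2.35 times lower. Among other cells, Sema3d was 7.19 times and Sema3c 3.26 times lower in KO. Nrp1 was 1.76 times higher in positive KO cells (1.47 to 2.12) and 3.35 times higher in other KO cells (3.05 to 3.68). Sema3f was at 39.4 CPM in KO and 50.2 CPM in Control among positive cells, a ratio of 0.786 (0.588 to 1.04), and 1.70 times lower in KO among other cells. Among positive cells 1 of 5 members was higher, with 15.2% of all genes, and 2 were lower, with 19.2%. Among other cells 2 of 6 were higher, with 14.0%, and 3 lower, with 10.5%.

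**Figure D4:**
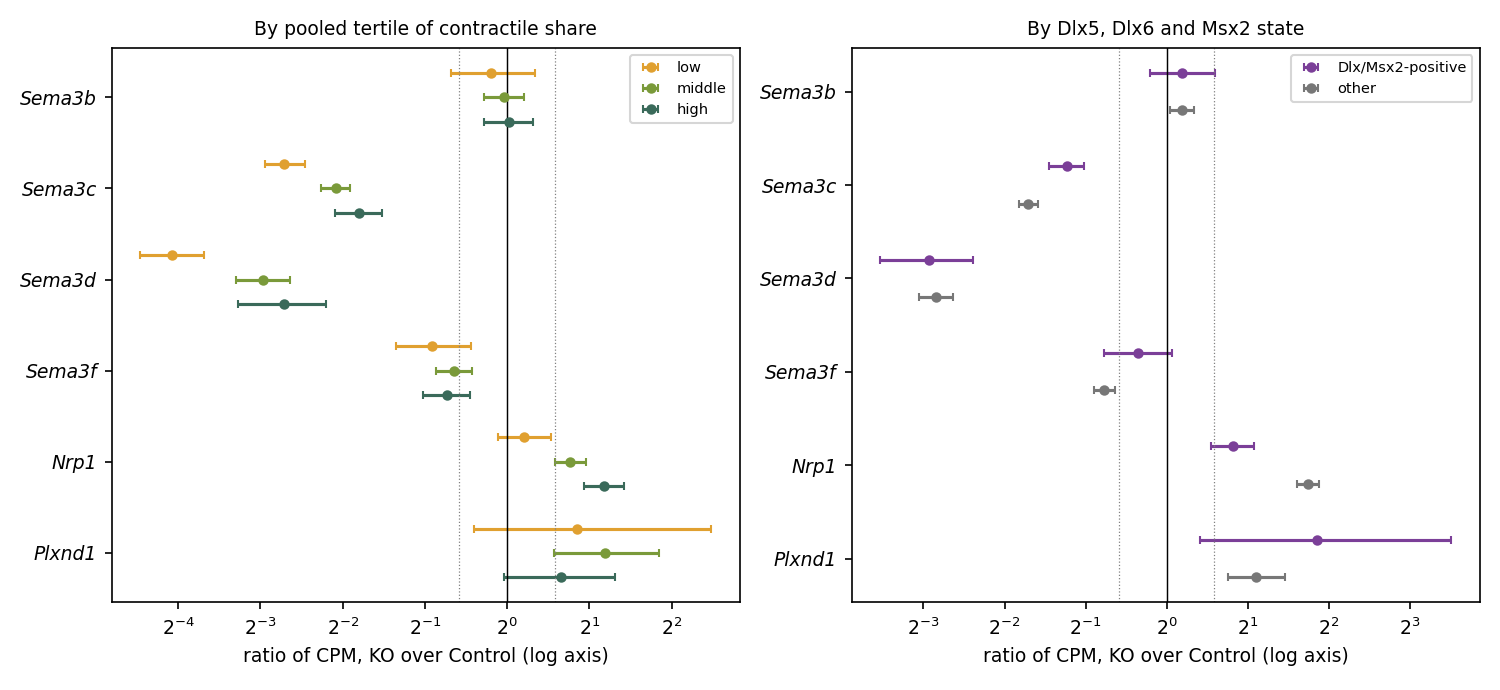
Ratio of CPM in KO over Control (log axis) for 6 members, on the left within pooled tertiles of contractile share and on the right within Dlx/Msx2-positive and other cells. Bars are 95% intervals for counting error and dotted lines mark 1.5-fold. Sema3d and Sema3c stay left of the line in every stratum, and the Nrp1 ratio is 1.15 in the low and 2.27 in the high tertile.

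The number of cells with a transcript gave the same picture once depth was made equal by thinning each cell to 5000 UMIs, which left out 17 KO and 90 Control cells. Sema3d was then detected in 3.26% of KO cells and 27.5% of Control cells (unthinned 12.0% and 48.7% in KO and Control). Sema3c was detected in 15.9% of KO and 44.3% of Control cells (unthinned 36.4% and 67.3%). For Nrp1 the shares were 37.5% of KO and 16.1% of Control cells (unthinned 70.1% and 30.9%).

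Control cells with 0 eGFP UMIs, which held no reporter transcript and had a median of 3750 UMIs, were set beside them. Among the 330 of them, no semaphorin had a UMI, which allows a share of cells with a UMI of up to 0.909% by the limit of 3 counts and does not limit the cells that express one. These are whole cells, so their own receptor transcripts and free RNA cannot be told apart, and their receptor shares are given as values only. Nrp1 was detected in 8.79% of them unthinned and in 12.3% of the 65 deep enough to be thinned (5.47% to 22.8%). Plxnd1 was detected in 10.8% of these thinned cells, and in 5.26% and 2.06% of thinned KO and Control SMCs, shares that are not read as a difference. Nrp2 was in 2.94% of thinned KO SMCs and 0.811% of thinned Control SMCs.

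Taking the ligands jointly, any of the 6 semaphorins was detected in 41.2% of thinned KO cells and 72.6% of thinned Control cells (unthinned 75.9% and 90.7% in KO and Control). At this depth a cell without a UMI may still hold the transcript.

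Among 73 other genes of semaphorin, plexin, VEGF and guidance signaling, 42 passed the minimum, 12 were higher and 7 lower in KO cells, and their median log2 ratio was 0.21. Over all genes compared, 13.1% were higher and 11.3% lower, and the counts of each list below stand beside these shares without a test. Of the genes counted, Pgf, Sema4a, Ntn4, Epha2 and Efna1 were below 5 CPM in Control cells, and Pcsk5 and Epha4 in KO cells. These genes passed the minimum only through the library where they were high. Of 8 VEGF ligands and receptors 5 passed the minimum, all but Vegfc, Flt4 and Kdr, and all 5 that passed were higher in KO. Flt1, a VEGF receptor that binds Vegfa, Vegfb and Pgf, was at 73.8 CPM in KO cells and 12.9 CPM in Control cells, a ratio of 5.73 (5.03 to 6.54). Figf, which encodes Vegfd, was at 24.2 CPM in KO and 5.55 CPM in Control, a ratio of 4.36, and Pgf, placental growth factor, at 18.4 CPM in KO and 4.90 CPM in Control, a ratio of 3.75. Vegfb and Vegfa, which binds Nrp1, had ratios of 2.26 and 1.64. The main endothelial VEGF receptor Kdr had 1 UMI in KO cells and 0 in Control cells.

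Of the 8 plexins beside Plxnd1, 5 passed and 2 were higher, where 13.1% of all genes were. Plxna2, a partner of the neuropilins, was at 38.3 CPM in KO and 14.2 CPM in Control, a ratio of 2.69 (2.36 to 3.07). Plxnb2, a receptor for membrane-bound class 4 semaphorins, was at 85.0 CPM in KO and 38.5 CPM in Control, a ratio of 2.21 (2.04 to 2.398). Plxna1, Plxna4 and Plxnb1 had ratios of 1.30, 1.06 and 1.28. Of 13 membrane-bound semaphorins 3 passed and 1 was higher, Sema4a, named here after its value was seen, at 7.77 CPM in KO and 3.10 CPM in Control. Below the minimum, and also named after their values were seen, Sema6a had 214 UMIs in KO and 6 UMIs in Control cells. Sema5b, with 2 UMIs in KO and 18 UMIs in Control, and Sema4d, with 2 UMIs in KO and 14 UMIs in Control, lay the other way. Sema5a, a transmembrane member, was at 40.6 CPM in KO and 48.2 CPM in Control.

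Of 20 genes that act inside the cell downstream of plexins, 13 passed, 1 was higher and 2 were lower, against 13.1% higher and 11.3% lower over all genes. Rhod, a small GTPase of endosomes, had a ratio of 2.23, Rnd3, a small GTPase that loosens actin stress fibers, was 1.96 times lower and Mical1, an actin oxidase that acts below plexins, 1.57 times lower. Dpysl2, a collapsin response mediator, was at 75.9 CPM in KO and 50.9 CPM in Control, a ratio of 1.49, and Rras, a GTPase that plexins switch off, at 169 CPM in KO and 248 CPM in Control, 1.47 times lower. Of the proprotein convertases, the class of enzymes that cleave class 3 semaphorins, 3 of 4 passed. Pcsk5 was at 3.31 CPM in KO and 29.6 CPM in Control, 8.93 times lower (7.22 to 11.1), while Furin was at 49.4 CPM in KO and 35.8 CPM in Control, a ratio of 1.38.

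Of 19 other guidance ligands and receptors, 13 passed, with 3 higher and 4 lower in KO, against 13.1% and 11.3% of all genes. Ntn1, a secreted netrin, was at 69.2 CPM in KO and 109 CPM in Control, 1.57 times lower, and its receptor Neo1 at 35.3 CPM in KO and 58.6 CPM in Control, 1.66 times lower. Efnb2, an ephrin of arterial cells, was at 25.3 CPM in KO and 42.1 CPM in Control, 1.66 times lower. Unc5b and Ephb4 had ratios of 1.27 and 1.35. Epha4 was also lower, and Ntn4, Epha2 and Efna1 were higher, all with a mean of the libraries below 10 CPM and named after their values were seen.

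**Figure D5:**
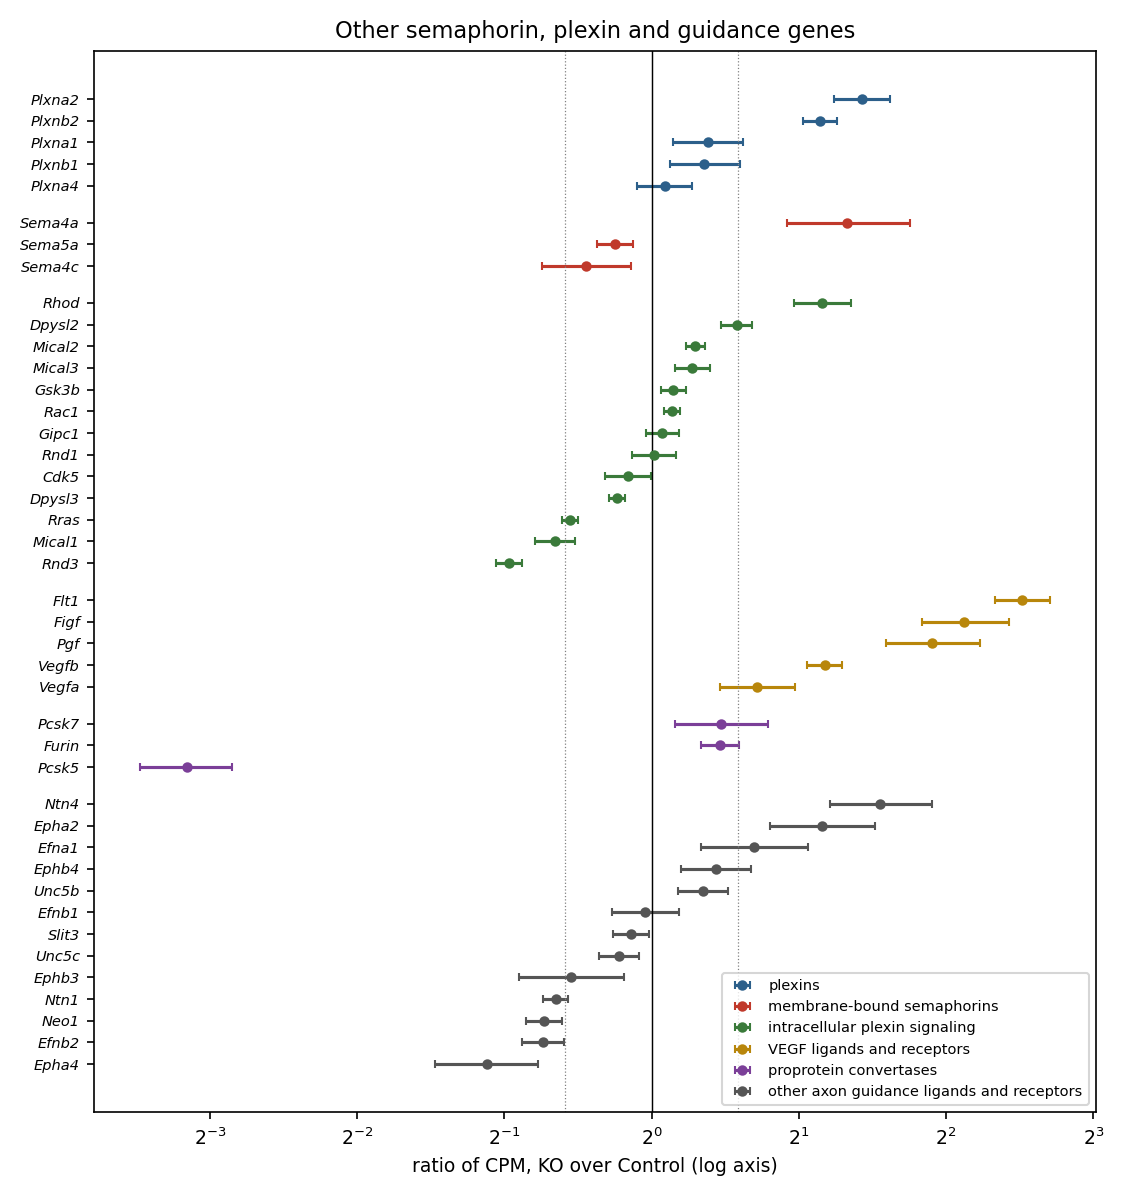
Ratio of CPM in KO over Control cells (log axis) for the 42 other semaphorin, plexin, VEGF, convertase and guidance genes with a mean of at least 5 CPM, grouped and coloured by list. Bars are 95% intervals for counting error and dotted lines mark 1.5-fold. The 5 VEGF genes and Plxna2 and Plxnb2 lie to the right, and Pcsk5 lies far to the left.

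Genes with the most similar pattern were sought across 9 strata of library, contractile tertile and homeobox state with at least 50 cells, among 5424 genes, by Pearson correlation of log2(CPM + 1). The strata share 2 libraries, so the points are not independent, and the values are descriptions. Closest to Sema3c were Vcan (r = 0.996), which encodes the matrix proteoglycan versican, Sobp (0.986) and Prdm6 (0.979), a transcriptional regulator of SMCs. Closest to Sema3d were Olfml2b (0.993), Cacna2d1 (0.991) and Morf4l1 (0.990). Nrp1 was closest to Cisd2 (0.987), Mxd4 (0.986) and Mdk (0.985), the last encoding the growth factor midkine. Plxnd1 was closest to Ahnak2 (0.977), Sema3b to Tmed5 (0.968) and Sema3f to 2510002D24Rik (0.983).

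The authors' deposited table of cluster averages, in counts per 10000, lists all 9 members over 16 columns of cluster and library, without the number of cells behind each column. In the authors' deposited table the columns with most Dlx5 were cluster 4 of KO, at 1.92, and cluster 4 of Control, at 1.54. These columns also held the most Sema3c of their library in the authors' deposited table, with 1.74 in KO cluster 4 and 3.02 in Control cluster 4. Other members of cluster 4 did not all stand as in the summed counts, since the authors' deposited table lists Sema3f there at 1.24 in KO and 0.445 in Control, and Nrp1 at 0.897 in KO and 0.863 in Control. For Sema3d in cluster 4 the authors' deposited table gives 0.446 in KO and 1.18 in Control. For cluster 0, which had 16.2 and 24.9 of the contractile gene Cnn1 in KO and Control, the authors' deposited table gives Sema3c at 0.550 in KO and 0.9495 in Control, and Sema3d at 0.204 in KO and 0.568 in Control. In clusters 4 and 0 of the authors' deposited table both ligands were thus lower in KO, but by less than in the summed counts. In cluster 1 of the authors' deposited table Sema3d was at 0.0646 in KO and 0.537 in Control, and Sema3c at 0.223 and 0.792. Clusters 2 and 3 did not all stand this way. In the authors' deposited table Sema3c was at 0.326 in KO and 0 in Control in cluster 2. In cluster 3 the authors' deposited table gives Sema3c at 0.248 in KO and 0.0385 in Control. Sema3d in the authors' deposited table was at 0.0516 in KO and 0.395 in Control in cluster 2, and at 0.0509 and 0 in cluster 3. Nrp1 in the authors' deposited table was at 1.44 in KO cluster 2, which had the least Cnn1 of the KO columns with any of the 9 genes at 1.51, and at 0.441 in KO cluster 0. Control cluster 2 had 5.53 of Nrp1, the highest Nrp1 value of the 16 columns in the authors' deposited table.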

How the data were processed

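Droplet RNA libraries of sorted aortic cells were compared, 1 KO and 1 Control. The submitters' processing notes name bcl2fastq, Cell Ranger, Seurat 2.0 and the build mm10, while the method of cell calling was not given in the sources used here, nor were filters. The authors deposited raw UMI counts per gene and cell, and a table of cluster averages whose columns each sum to 10000, read as a linear signal that the authors averaged over cells. From the deposited counts, the UMIs of all cells in a group were added up and divided by the group's total (CPM). Intervals are exact: conditional binomial for ratios, Poisson for levels and Clopper-Pearson for shares. No doublet caller was run. A count of 3 equals 0.0975 CPM in KO and 0.150 CPM in Control cells, which is what a count of 0 allows.

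Levels were compared between libraries, between homeobox states, between tertiles of contractile share, and between libraries within pooled tertiles and within homeobox states. The ratio calculation was tested on simulated counts. Alternatives covered scaling, filters on cells and genes, the homeobox limit, the contractile list and the number of parts. The named genes were the 9 members, from each related list up to 3 genes at either end of the ratio and any past 2-fold with a mean of at least 10 CPM, the 3 genes most like each member, and markers. The members and lists were chosen with earlier results of these data known. One marker list is not reported here. Gene positions came from GENCODE and promoters from RefSeq. Python 3.11.15, numpy 2.4.6, scipy 1.17.1 and pandas 2.3.3 were used.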

Additional observations from a re-analysis of the deposited data

Results flagged for a closer look

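Receptor transcripts appeared in cells outside the comparisons, the 330 Control cells with 0 eGFP UMIs. Nrp1 was at 26.5 CPM there, Nrp2 at 3.79 CPM (1.23 to 8.85) and Plxnd1 at 12.9 CPM, while the 6 semaphorins had no UMI. In these cells the exact Poisson bound of a count of 0 is 2.80 CPM. The 3 receptor levels were above it, but the Nrp2 interval includes it. These levels rested on 35, 5 and 17 UMIs of Nrp1, Nrp2 and Plxnd1. The source of these transcripts was not tested.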

How the results depend on the processing

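No paired analysis was possible because each genotype had 1 library. Of the values for single genes, 775 moved by less than their counting interval, 71 moved further and 1 changed side. Of the counts of members higher or lower, 172 stayed within 1.5 times and 24 did not. Between KO and Control, the ratio of Sema3d ranged from 0.0844 to 0.138, Sema3c from 0.229 to 0.308, Sema3f from 0.530 to 0.644, Nrp1 from 2.48 to 2.85 and Plxnd1 from 2.10 to 2.44 over 8 alternatives.

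With a contractile share without Acta2 and Tagln, the Plxnd1 ratio in the pooled low tertile was 0.9299, the Nrp1 ratio was 0.838 in the pooled low and 1.39 in the pooled high tertile, and the Sema3c ratio in the pooled low one was 0.264. Median-of-ratios scaling gave Sema3f a ratio of 0.674 in the pooled middle tertile. With that share, 0 members in the pooled low and 1 in the pooled high tertile were higher in KO, and 1 was lower in the low than in the high KO tertile. Without the top 5% of cells by UMIs, 1 member was higher in the pooled high tertile and 2 were higher in the low KO tertile. Between KO and Control, 5 members were lower with no minimum level, and 1 was higher and 1 lower with a minimum of 50 CPM.

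In the low against the high KO tertile, 2 members were higher with eGFP at 1 UMI or more or at 20 UMIs or more, and 1 was lower with median-of-ratios scaling, with eGFP at 20 UMIs or more or with 2 equal parts. Among cells with fewer than 2 homeobox UMIs, 2 were higher and 1 lower in KO, and 1 was higher in Control. In homeobox-positive against other KO cells, 1 was lower with median-of-ratios scaling or with a mean over cells, and 1 was higher with a limit of 1 UMI, where Sema3d was below 1.5-fold. With a limit of 4 UMIs, the Sema3d ratio was 1.41. Between positive KO and Control cells, 2 were higher with limits of 1 UMI, 4 UMIs or 100 CPM, with at most 5% mitochondrial UMIs, or with totals without contractile genes and Mgp. The causes were not tested beyond these settings. Depth limits Sema3a, Sema3e and Nrp2, which had at most 165 UMIs in a library.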
